A study of Mus musculus with 6 samples.

Results

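The 9 target IDs described here name CD surface molecules in MC38 cells: CD44, CD47, CD24A, CD55, CD59A, CD200, CD276, CD8B1 and CD300LB. They were chosen as adhesion and immune-evasion molecules, with CD8B1 and CD300LB added, and the set was selected on the measured intensities of the 3 EPA against the 3 control columns. Each was found as the row whose target ID equals the name. All 9 were on the table of 30828 target IDs. The choice was made with the difference between EPA and control cells known, so the values of the 9 targets are given as a description, with no p-value. MC38 cells are an established line from a mouse colon tumour, grown here in RPMI medium with foetal calf serum. One group of 3 samples received 50 µM eicosapentaenoic acid (EPA), an omega-3 fatty acid, as the free fatty acid for 24 h, and the other 3 samples were control cells, for which the labels used here give no time or vehicle. Total RNA was amplified into biotin-labelled cRNA and read on Illumina mouse whole-genome bead arrays, 1 per sample. Whether the 3 samples per group were independent cultures is not stated in the labels, so the error measured here may be only technical.

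Array medians were 35.2 on all arrays, since the values are quantile-normalised. Background was centred at an intensity of 28.2, and a target counted as above background on an array where it exceeded 39.6. Of all target IDs, 11743 (38.1%) did so throughout 1 group or both, and these were tested. Correlations of log2 intensity across targets ran from 0.994 to 0.997 within groups and from 0.984 to 0.986 between groups. Of 12 epithelial markers, 3 were tested (Krt8, Cldn7 and Lgals4) and 0 passed in limma, with 1 at an unadjusted p under 0.05. Cldn7 and Lgals4 passed only without control replicate 1. Krt8 and Lgals4 were above background on all 6 arrays, and Cldn7 on all but control replicate 3. Of the markers not tested, Cdh1, Krt20, Cdx2 and Muc1 were above background on some arrays. Epcam, Krt18, Krt19, Vil1 and Cldn3 were above it on none of the 6 arrays. The number of arrays limits the precision of every value.

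CD molecules are cell surface proteins numbered by the antibodies that recognise them. CD44 binds hyaluronan in the matrix and links the membrane to the actin skeleton. CD47 signals to phagocytes through their receptor SIRPα, CD55 and CD59 block complement on the cell's own membrane, and CD200 and CD276 (also called B7-H3) act on immune cells as inhibitory ligands or checkpoint molecules. CD24, CD55 and CD59 are held in the membrane by a glycosylphosphatidylinositol (GPI) anchor. CD8B1 is the β chain of the CD8 coreceptor of T cells, and CD300LB is an activating receptor of myeloid cells.

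In the EPA cells, CD44, CD47, CD276 and CD300LB read higher on every array than on any control array. CD24A and CD55 were at background in both groups, CD8B1 lay below the limit on all EPA arrays, and CD59A and CD200 lay near it with overlapping groups, CD59A with 1 EPA array below it. Another row of the table, with the target ID CD8B, was bright, and RefSeq lists that name as a synonym of Cd8b1. Of the 9 targets, 6 passed the background filter, and 4 of these, all higher with EPA, passed an adjusted p of 0.05 in a limma fit over all 11743 tested targets. In the same fit 32.9% of all tested targets passed, 16.3% higher and 16.6% lower. The groups did not overlap for the same 4 targets, and they did not overlap for 46.9% of all tested targets. Nothing is read from these counts, because the contrast was used to choose the targets.

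**Figure D1:**
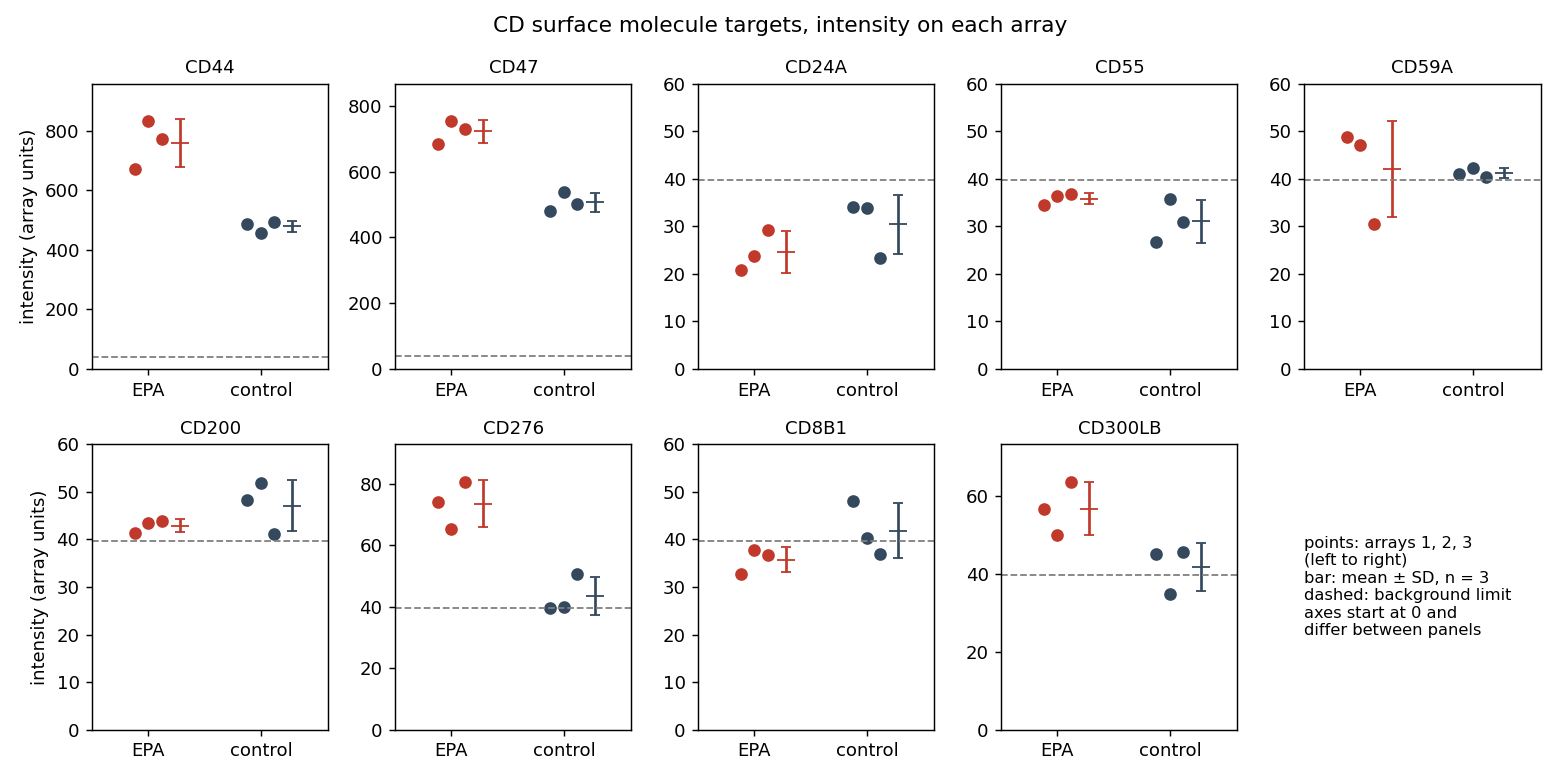
Intensity of the 9 targets on each array (vertical axis, array units, from 0, with its own range per panel), EPA on the left and control on the right of each panel; points are arrays, bars are mean ± SD (n = 3), and the dashed line is the background limit of 39.6. CD44 and CD47 lie far above the line with separated groups, CD276 and CD300LB are separated near the line, and the others overlap or lie below it.

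The promoters of the 4 genes with separated groups are shown as a description. The contrast was used to choose the targets, so nothing about shared regulation is read from them. The windows run from 250 bases before to 50 bases after a transcription start and come from RefSeq (GRCm38.p6). Capitals mark matches to any of 6 motifs on either strand: GC box (GGGCGG), hypoxia response core (ACGTG), AP-1 (TGANTCA), cAMP response element (TGACGTCA), TATA box (TATAAA) and the NF-kB site.
Cd44, chr2:102901616-102901915 (- strand): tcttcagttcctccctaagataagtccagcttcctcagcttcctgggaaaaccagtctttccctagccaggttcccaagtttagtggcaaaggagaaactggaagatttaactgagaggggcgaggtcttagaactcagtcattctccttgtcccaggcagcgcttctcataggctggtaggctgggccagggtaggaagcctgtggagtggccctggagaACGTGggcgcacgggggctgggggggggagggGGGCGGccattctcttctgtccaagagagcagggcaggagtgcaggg
Cd47, chr16:49855404-49855703 (+ strand): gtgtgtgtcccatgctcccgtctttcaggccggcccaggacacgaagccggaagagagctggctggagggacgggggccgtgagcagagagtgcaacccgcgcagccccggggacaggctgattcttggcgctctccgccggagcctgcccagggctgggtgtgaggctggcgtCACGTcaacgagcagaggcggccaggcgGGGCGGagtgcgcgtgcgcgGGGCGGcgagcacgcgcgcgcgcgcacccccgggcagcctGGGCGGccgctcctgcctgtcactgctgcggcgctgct
Cd276, chr9:58554984-58555283 (- strand): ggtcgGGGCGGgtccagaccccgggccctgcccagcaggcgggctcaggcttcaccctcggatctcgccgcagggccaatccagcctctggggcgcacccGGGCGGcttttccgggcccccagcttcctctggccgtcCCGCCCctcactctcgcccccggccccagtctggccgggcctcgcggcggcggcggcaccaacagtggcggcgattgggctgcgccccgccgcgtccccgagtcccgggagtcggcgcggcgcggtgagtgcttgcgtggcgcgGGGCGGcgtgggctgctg
Cd300lb, chr11:114934322-114934621 (- strand): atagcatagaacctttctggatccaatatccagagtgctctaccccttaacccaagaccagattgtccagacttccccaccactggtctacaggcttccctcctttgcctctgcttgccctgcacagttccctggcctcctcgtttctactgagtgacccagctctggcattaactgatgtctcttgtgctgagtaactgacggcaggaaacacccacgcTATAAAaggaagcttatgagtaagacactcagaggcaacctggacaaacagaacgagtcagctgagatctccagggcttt
The table held a window for 7 of the 9 genes, and no window was found for Cd24a or Cd8b1. For Cd47 it held 2 windows, and only the first, shown above, was scanned. The Cd44 window held 1 GC box and 1 hypoxia response core, Cd47 held 3 and 1, and Cd276 held 4 GC boxes and none of the other motifs. The Cd300lb window held a TATA box at -30 from the start and no other match. Of the genes without separated groups, Cd55 held 2 GC boxes, Cd200 held 1, and Cd59a held no match. No matches of different motifs overlapped in these windows. Over 32851 windows of the same length, 35.7% held a GC box, 19.6% a hypoxia response core and 13.6% a TATA box. AP-1 (7.81% of all windows), the cAMP response element (1.79%) and the NF-kB site (8.46%) matched in none of the 7 windows. GC content was 58.0% for Cd44, 74.0% for Cd47, 78.3% for Cd276 and 50.7% for Cd300lb. A match is a run of letters and does not show binding.

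CD44, the hyaluronan receptor, had intensities of 672, 832 and 772 in EPA cells, against 487, 457 and 492 in control cells. Every EPA array was above every control array. The means were 759 ± 81.1 in EPA cells and 479 ± 18.9 in control cells (SD, n = 3 each), a log2 difference of 0.66 (SE 0.0917) or 1.58-fold. The table gives 1 value for 9 probes of CD44, so its splice variants cannot be told apart here. The authors' deposited table lists CD44 with a ratio of 1.58. Among all tested targets, 2.47% had a larger log2 difference.

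Genes that work with CD44 were taken from a list of hyaluronan enzymes, membrane linkers, sheddases and ligands. Of 22 listed genes 9 were tested, and 6 rose, 0 fell and 3 did not pass, with a median log2 difference of 0.51 against 0.00 over all tested targets. Has2, a hyaluronan synthase, averaged 168 ± 24.8 in EPA cells and 101 ± 4.03 in control cells (SD, n = 3 each; 1.65-fold, limma adjusted p = 0.000892). Of the genes tied to hyaluronan breakdown, Hyal1 and Cemip did not pass the background filter. Hyal2, a cell surface hyaluronidase, averaged 889 ± 99.5 in EPA cells and 570 ± 25.6 in control cells (1.55-fold, limma adjusted p = 0.000986), and Cemip2, listed as TMEM2, rose 1.75-fold. The next genes encode proteases that can cut CD44 at the surface, or a matrix ligand. Mmp14, the membrane-type matrix protease, averaged 1380 ± 214 in EPA cells and 696 ± 49.9 in control cells (1.97-fold, limma adjusted p = 0.000303). Adam17, a sheddase, rose 1.43-fold (limma adjusted p = 0.00185), and Vcan, the hyaluronan-binding proteoglycan versican, rose 1.38-fold (limma adjusted p = 0.00186). Adam10, another sheddase of the list, was above background on no array and was not tested. Msn, which encodes the actin linker moesin, and the secreted protease gene Mmp9 had log2 differences of -0.09 and 0.11 and did not pass. Spp1, which encodes the CD44 ligand osteopontin, had a log2 difference of 0.24 and did not pass (limma adjusted p = 0.0549), but it passed under 8 alternative settings. No gene of the list was lower at an unadjusted p under 0.05 (0 of 9).

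CD44 and several of these matrix genes are also made by fibroblasts, and fibroblast markers moved with them. Of 9 fibroblast markers 6 were tested, and 5 rose and 0 fell (limma; 0 lower also at an unadjusted p under 0.05), among them Dcn, which averaged 551 ± 13.1 in EPA cells and 263 ± 9.46 in control cells. The summed intensity of the 9 ran from 1200 to 1289 on EPA arrays and from 692 to 705 on control arrays, and without Dcn from 658 to 739 on EPA arrays and from 423 to 441 on control arrays. Lum, Thy1 and Fap were above background on no array. The part of these markers in the CD44 values was not tested.

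CD47, the signal that restrains phagocytes, had intensities of 684, 754 and 729 in EPA cells, against 481, 538 and 500.5 in control cells. The groups did not overlap. The means were 722 ± 35.7 in EPA cells and 507 ± 29.2 in control cells (SD, n = 3 each), a log2 difference of 0.51 (SE 0.0787) or 1.43-fold. The authors' deposited table gives a ratio of 1.43. Cd47 has 3 further rows, 2 under RIKEN clone names and 1 as ITGP. The brighter clone row read 1363, 1092 and 1152 in EPA cells, against 814, 932 and 802 in control cells (log2 difference 0.50, SE 0.102). The other clone row, B430305P08RIK, read 212, 200.2 and 200.1 in EPA cells, against 183, 168 and 152 in control cells (log2 difference 0.28, SE 0.0861). Both rows were higher on every EPA array than on any control array, and the second differed by less than the CD47 row did, a gap that was not tested. The row ITGP was above background on none of the arrays.

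Of 17 genes listed as ligands, receptors and modifiers of CD47, with pro-phagocytic signals, 10 were tested. Of these 7 rose, 0 fell (0 also at an unadjusted p under 0.05) and 3 did not pass, with a median log2 difference of 0.41. Thbs1, thrombospondin 1 and a secreted ligand of CD47, averaged 195 ± 16.4 in EPA cells and 94.0 ± 7.19 in control cells (SD, n = 3 each; 2.07-fold, limma adjusted p = 6.54e-05). Thbs2 rose 1.31-fold (limma adjusted p = 0.00669), and Sirpa, the phagocyte receptor of CD47, rose 1.35-fold (limma adjusted p = 0.00579). Calr, calreticulin, an endoplasmic reticulum chaperone that acts as an eat-me signal when it reaches the surface, rose 2.29-fold. Mfge8, which bridges dying cells to phagocytes, averaged 4506 ± 412 in EPA cells and 2498 ± 74.4 in control cells (1.80-fold, limma adjusted p = 0.000123). Itgav, the αv integrin subunit, rose 1.40-fold. Itgav and Qpct, also called higher, were above background on 2 of the control arrays. Both passed the filter through the EPA group, and a target that enters this way can hardly be called lower. Itga2b, an integrin subunit of platelets, and Ptpn11, a phosphatase that binds the tail of SIRPα, had log2 differences of -0.09 and 0.10 and did not pass.

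**Figure D2:**
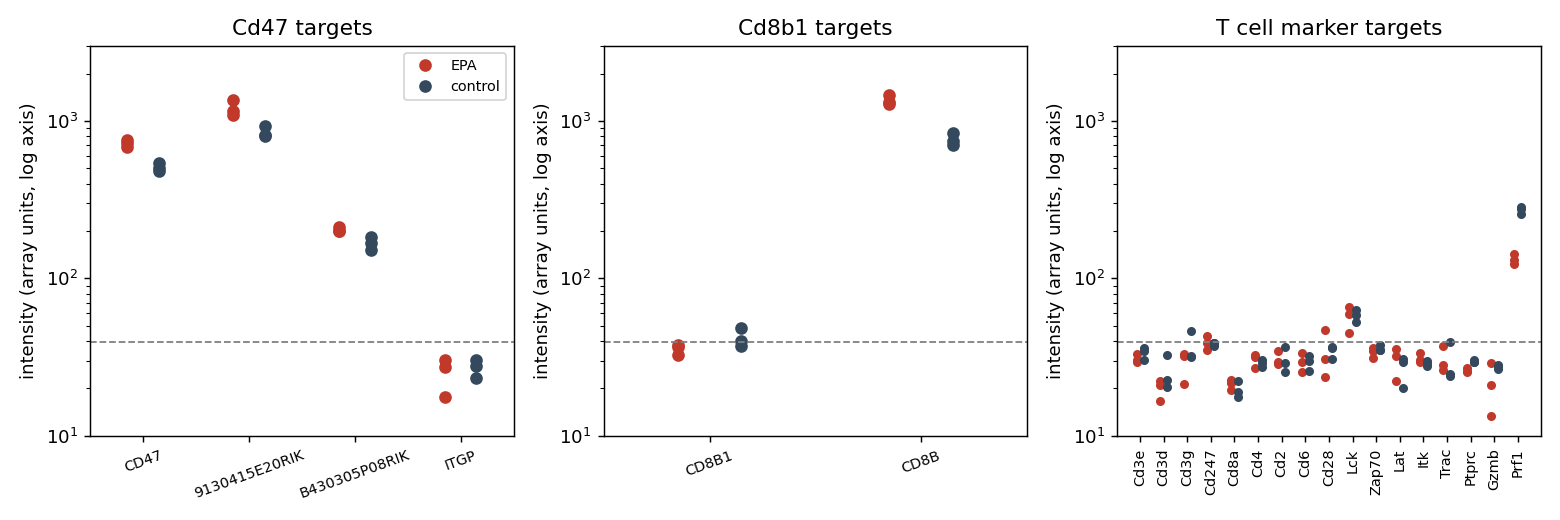
Intensity on each array (log axis, array units) of the 4 Cd47 rows, the 2 Cd8b1 rows and the 17 T cell marker genes found on the table, EPA left and control right within each name, with the background limit of 39.6 dashed. CD47, both RIKEN clone rows of Cd47, and CD8B lie above the line with separated groups. CD8B1 lies near it, above it on 2 control arrays, and most T cell markers lie at or below it.

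CD276, a B7-family checkpoint molecule, had intensities of 74.3, 65.5 and 80.7 in EPA cells, against 39.7, 40.0 and 50.6 in control cells. The groups did not overlap, and 2 of the control arrays lay within 1 intensity unit of the background limit. The means were 73.5 ± 7.67 in EPA cells and 43.4 ± 6.22 in control cells (SD, n = 3 each), a log2 difference of 0.76 (SE 0.115). With the background level of 28.2 subtracted the difference was 1.63 on the log2 scale, or 3.09-fold, so its size depends on how background is treated. The authors' deposited table gives a ratio of 1.69. Among all tested targets, 1.46% had a larger log2 difference.

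CD200, a ligand that quiets myeloid cells through the CD200 receptor, had intensities of 41.4, 43.5 and 43.9 in EPA cells, against 48.2, 51.9 and 41.2 in control cells. All 6 arrays were above the limit and the groups overlapped. The log2 difference was -0.13 (SE 0.0939).

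Of 28 further checkpoint ligands and receptors 9 were tested, and 6 rose, 1 fell and 2 did not pass, with a median log2 difference of 0.29. Nt5e, which encodes the adenosine-forming enzyme CD73, averaged 236 ± 6.82 in EPA cells and 140 ± 15.8 in control cells (SD, n = 3 each; 1.69-fold, limma adjusted p = 0.000343). Pvr and Nectin2, ligands of the receptor TIGIT, rose by log2 0.58 (limma adjusted p = 0.000561) and 0.42 (limma adjusted p = 0.00444). Selp, the adhesion molecule P-selectin, and Lgals9, galectin 9, rose 1.22-fold and 1.18-fold. Trem2, a myeloid receptor, was also called higher, with all control arrays below background. The calls for Lgals9, Cd274, Trem2 and Selp were lost under 10, 7, 6 and 4 of the 16 alternative settings. With 1 array left out at a time, the list had 3 to 5 calls, with 3 when control replicate 1 was left out and 4 without control replicate 2. The gene that fell was Cd274, PD-L1, at 98.8 ± 6.34 in EPA cells and 118 ± 8.19 in control cells (SD, n = 3 each; log2 -0.25). Nectin3, an adhesion molecule of the nectin family, and Cd160, a receptor of lymphocytes, had log2 differences of 0.15 and 0.09 and did not pass.

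CD24A, a small GPI-anchored glycoprotein, had intensities of 20.7, 23.7 and 29.3 in EPA cells, against 34.0, 33.9 and 23.3 in control cells. CD55, decay-accelerating factor, had 34.4, 36.3 and 36.7 in EPA cells, against 26.7, 35.6 and 30.9 in control cells. Neither was above background on any array, so their log2 differences of -0.30 (SE 0.194) and 0.21 (SE 0.126) compare values at background. CD59A, which blocks the complement pore, had 48.8, 47.0 and 30.4 in EPA cells, against 41.1, 42.3 and 40.3 in control cells. EPA replicate 3 alone lay below background. The log2 difference of CD59A was 0.00 (SE 0.157) with all arrays and 0.22 without EPA replicate 3.

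Of 29 complement regulators and components 5 were tested, and in limma 0 rose, 0 fell and 5 did not pass, with 0 also at an unadjusted p under 0.05. Cr1l, listed as CRRY, the rodent membrane regulator of complement, averaged 123 ± 8.14 in EPA cells and 140 ± 13.9 in control cells (SD, n = 3 each; limma adjusted p = 0.157). C7, a component of the membrane pore, had a log2 difference of 0.20 (limma adjusted p = 0.121). Cfi and C1qbp, which encode factor I and a protein that binds C1q, had log2 differences of -0.03 and -0.01. The median log2 difference of the list was -0.01, and 14 of its 28 genes on the table were above background on no array.

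Genes that build and attach the GPI anchor, which CD24, CD55 and CD59 carry, went both ways. Of 30 listed genes 22 were tested, and 4 rose, 8 fell and 10 did not pass, with a median log2 difference of -0.08. Pigp, a subunit of the first enzyme of anchor synthesis, averaged 465 ± 53.6 in EPA cells and 797 ± 23.9 in control cells (SD, n = 3 each; log2 -0.78, limma adjusted p = 0.000261). Pigl, the deacetylase of the next step, and Dpm3, of the mannose donor synthase, also fell (log2 -0.40 and -0.33). The transamidase that joins the anchor to proteins had subunits on both sides. Pigu, Pigs, Pigt and Pigk rose 1.79-fold, 1.38-fold, 1.22-fold and 1.18-fold, while Gpaa1, a subunit of the same complex, fell (log2 -0.28, limma adjusted p = 0.0218). The calls for Pigk and Gpaa1, which were named after their values were seen, were lost under 7 and 5 alternative settings. Among the other genes that fell, Pigm, Piga, Pigyl and Pigf lost their calls under 9, 7, 6 and 4 settings. Pigm was above background on 1 of the EPA arrays and passed the filter through the control group. Pigq and Pigh, of the first enzyme, had log2 differences of 0.00 and 0.04 and did not pass. The Dpm3 call was lost without EPA replicate 3 and without control replicate 1. The list had 6 calls without EPA replicate 3, and 7 without control replicate 2 or control replicate 3. Without the background filter it had 2.

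CD8B1 had intensities of 32.8, 37.8 and 36.7 in EPA cells, against 48.2, 40.3 and 37.0 in control cells. It was above background on 0 of the EPA arrays and 2 of the control arrays, so the row was not tested. The row CD8B, which the RefSeq names tie to the same gene as an older synonym, read 1463, 1317 and 1281 in EPA cells, against 702, 838 and 742 in control cells. Every EPA array was above every control array in that row, with a log2 difference of 0.83 (SE 0.0914) or 1.78-fold. The authors' deposited table lists CD8B with a ratio of 1.78 and does not list CD8B1. That table holds no target with a raw p-value of the authors above 0.05, so a target missing from it has no ratio to compare. The 2 rows thus disagree on whether the gene is above background, and no probe sequence was used here to tell which one reads Cd8b1 RNA.

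Markers of T cells were largely at background. Of 20 listed, 17 were on the table and 2 were tested. Cd8a, which encodes the partner chain of CD8, read 22.5, 21.6 and 19.6 in EPA cells, against 19.1, 17.7 and 22.2 in control cells. Cd3e, Cd3d, Cd4, Cd2 and Ptprc were likewise above background on no array. The tested markers were Lck, a kinase of T cell receptor signalling (log2 difference -0.05, not past), and Prf1, perforin, which fell to 133 ± 10.4 in EPA cells, against 272 ± 13.1 in control cells (SD, n = 3 each; log2 -1.04, limma adjusted p = 5.31e-05). The summed intensity of the list ran from 609 to 652 on EPA arrays and from 759 to 815 on control arrays. Without Prf1 the other 16 summed to 486 to 508 on EPA arrays and 498 to 538 on control arrays, and the groups overlapped.

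CD300LB had intensities of 56.5, 50.1 and 63.6 in EPA cells, against 45.1, 34.7 and 45.6 in control cells. The groups did not overlap, and 1 of the control arrays was below background. The means were 56.7 ± 6.80 in EPA cells and 41.8 ± 6.16 in control cells (SD, n = 3 each), a log2 difference of 0.44 (SE 0.125) or 1.36-fold. With background subtracted the log2 difference was 1.14, with control replicate 2 set at the floor. The call was lost with background subtracted, without the filter on dim targets, without EPA replicate 3 (log2 difference 0.36) and without control replicate 2 (0.32).

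Relatives of CD300LB gave little signal. Cd300a, Cd300lf and Cd300lg were above background on no array, and Cd300ld read 42.3, 44.5 and 39.3 in EPA cells, against 29.8, 29.8 and 33.3 in control cells. Cd300e read 27.1, 30.4 and 41.5 in EPA cells, against 26.5, 25.2 and 26.4 in control cells. For Cd300ld and Cd300e the groups did not overlap, with log2 differences of 0.44 and 0.32. Neither passed the background filter, so neither was tested. Of 23 myeloid markers 7 were tested, and 2 rose, 2 fell and 3 did not pass. The summed intensity of the 20 on the table ran from 1787 to 2034 on EPA arrays and from 1564 to 1651 on control arrays. Without Ly6c1, the gene with the widest gap, the sum of the other 19 ran from 764 to 795 on EPA arrays and from 770.0 to 848 on control arrays, so the groups overlapped. Itgam, Adgre1, Tyrobp and Lyz2, markers of macrophages and their kin, were above background on no array. Other genes of the list were above it, Cd14 and Cd68 on all 6 arrays and Lyz1 on all but control replicate 1. Cd14 averaged 133 ± 14.2 in EPA cells and 134 ± 13.4 in control cells (SD, n = 3 each). Cd68 averaged 68.0 ± 2.08 in EPA cells and 62.4 ± 4.25 in control cells. These 3 were the tested markers that did not pass. The markers that rose were Ly6c1 (1.34-fold) and Fcer1g, which was below background on all control arrays, and those that fell were S100a8 (log2 -0.64) and Cx3cr1, which was below background on all EPA arrays and lost its call under 8 alternative settings. The part of these markers in the CD300LB values was not tested. Of the lists for B cells, NK cells, platelets and red cells, and endothelium, 1 of 6, 0 of 4, 2 of 7 and 0 of 6 genes were tested, and Ms4a1 and Hba-a1 were called higher, Ms4a1 with all control arrays below background.

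**Figure D3:**
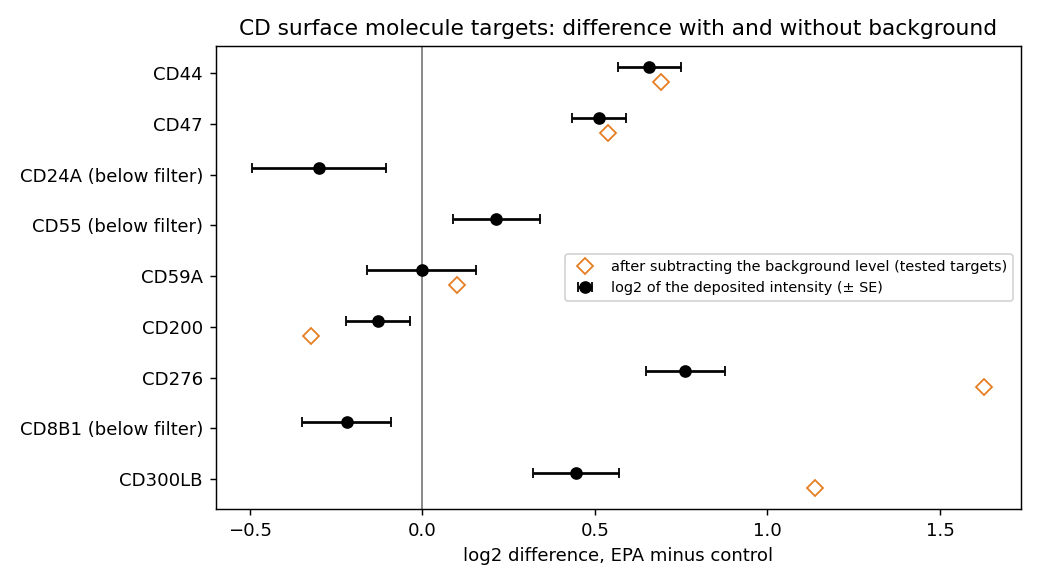
Log2 difference, EPA minus control, of each target (horizontal axis), as filled points with SE from log2 of the deposited intensity and as open diamonds after the background level was subtracted, for targets above the filter. CD44 and CD47 keep their place under both, while CD276 moves to 1.63 and CD300LB to 1.14.

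The table holds 88 target IDs made of CD and a number. Leaving out the 9 targets, the row CD8B and 3 IDs that name no surface molecule, 75 others remained, of which 48 were above background on no array and 18 were tested. Of these 10 rose, 1 fell and 7 did not pass, with a median log2 difference of 0.46. Over all tested targets 16.3% were called higher and 16.6% lower. Among those that rose, Cd109 was above background on none of the control arrays and Adgre5 on 2 of them. These genes passed the filter through the EPA group. The gene that fell was Cd274, which is also counted in the checkpoint list. Cd81, a tetraspanin that organises membrane partners, averaged 5124 ± 517 in EPA cells and 2680 ± 135 in control cells (SD, n = 3 each; 1.91-fold, limma adjusted p = 0.000105). The tetraspanins Cd82, Cd9 and Cd151 rose 1.53-fold, 1.53-fold and 1.42-fold. The tetraspanin Cd63, named after its values were seen, averaged 7460 ± 224 in EPA cells and 6940 ± 390 in control cells (SD, n = 3 each) and did not pass (log2 0.11, limma adjusted p = 0.315). Cd248, endosialin, a marker of mesenchymal cells, rose 1.67-fold (limma adjusted p = 0.000169), and the sialomucin gene Cd164 rose 1.64-fold (limma adjusted p = 0.000155). Cd14, a receptor for bacterial lipopolysaccharide, and Cd320, which takes up vitamin B12, had log2 differences of -0.02 and 0.08 and did not pass.

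**Figure D4:**
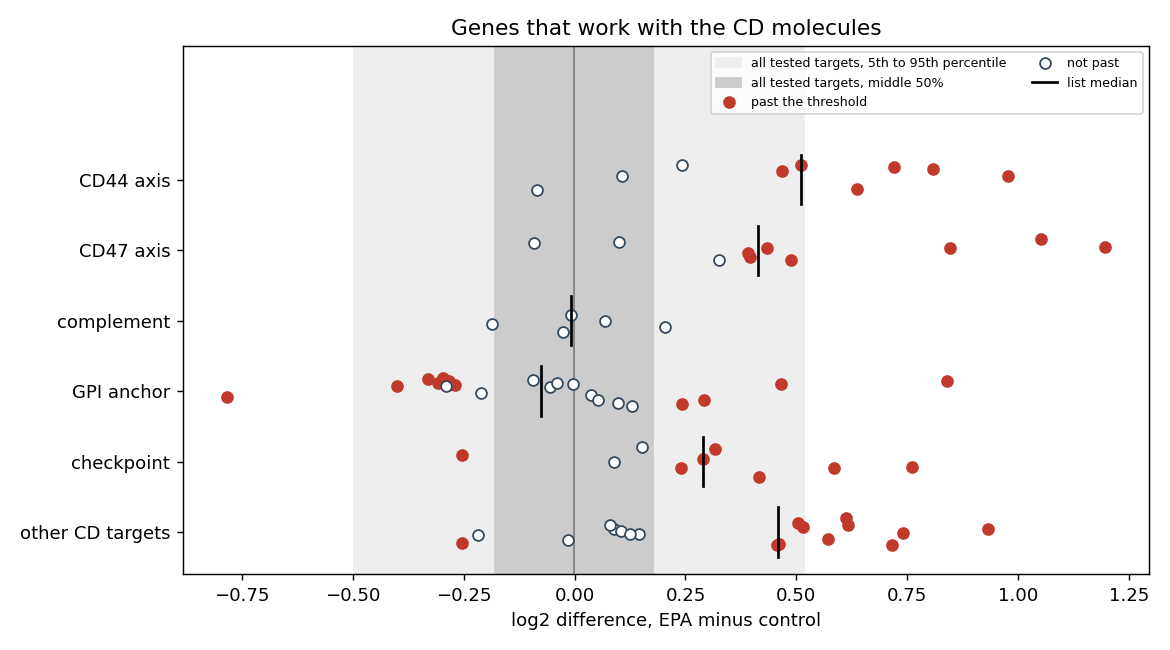
Log2 difference, EPA minus control (horizontal axis), of each tested gene in the 6 lists, filled where it passed the limma threshold and open where it did not, with the list median as a black bar; grey bands show the middle 50% and the 5th to 95th percentile of all tested targets. Most filled points of the CD44, CD47 and other CD lists lie to the right of 0, and those of the GPI anchor list lie on both sides.

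The targets varied among themselves in spread. The coefficient of variation was 10.7% for CD44 and 4.95% for CD47 in EPA cells, against 3.95% and 5.76% in control cells, with medians over all tested targets of 6.91% in EPA cells and 6.37% in control cells. That of CD59A was 24.1% in EPA cells and 2.38% in control cells.

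Likeness of pattern was measured as the root mean square distance between log2 intensities, each centred on its mean over the 6 arrays. Distances were taken to every named tested target of another gene, so the Cd47 clone rows and CD8B were not candidates. The genes nearest to CD44 were Bpnt2, Edem2 and Hyal2, at 0.0255 to 0.0301. The nearest to CD47 were Ndrg2, Sptlc1 and Alg9 (0.0357 to 0.0412), and to CD276 Helz, Mlec and Slc48a1 (0.0503 to 0.0763). Sppl3, Itga7 and Ptk7 were nearest to CD300LB (0.0639 to 0.0787), and Snf8, Rcor2 and Rps29 to CD200 (0.0384 to 0.0403). Near background, the nearest were Olfr231, Gigyf2 and Mbtd1 for CD59A (0.0650 to 0.0794), and Trav4d-4, Ago3 and Zfp768 for CD8B1 (0.0418 to 0.0491). Each distance rests on 6 arrays in 2 groups, so a shared difference between the groups enters it.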

How the data were processed

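RNA from 3 EPA and 3 control samples of MC38 cells was read on 6 Illumina arrays, which the deposited sample sheet places on 1 slide. GenomeStudio 1.7.0 with quantile normalisation is named per the file headers. The deposited series table gives linear intensity per target ID; the handling of several probes per target and of background is not given in the sources used. The authors' deposited table gives a ratio of EPA over control, its log2 value and a raw p-value for 4423 targets. The highest raw p-value of the authors in it is 0.05, and only the ratio was used. Elsewhere, 102 per-array columns match no sample label and were not used.

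Group differences in log2 intensity were fitted by limma (version 3.58.1, R 4.3.3), with two-sided moderated tests, adjustment by Benjamini-Hochberg over the 11743 tested targets and a threshold of 0.05. Background was the mode of the intensities (28.2) with the SD of the values below it (6.97), and the limit of 39.6 leaves a one-sided share of 0.05 of that spread above it. Folds come from the deposited intensities, with no background subtracted here. If these values still hold background, folds of dim targets are too small, which was not tested. The design named this test, and rows were kept as targets because the CD molecules are rows. Names came from RefSeq (GRCm38.p6): 16218 targets matched a current symbol, 5703 1 synonym, 117 several and 8790 none; the brightest target stood for a listed gene. The script was tested on simulated data. The CD targets, the 6 partner lists and the 8 marker lists were chosen with earlier results of these data known. Genes named from a partner list are up to 6 with the smallest and 2 with the largest p; a few others were named after their values were seen. A gene that this rule names is not reported here. A total of 16 alternative settings were tried.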

Additional observations from a re-analysis of the deposited data

How the results depend on the processing

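Across 16 alternative settings the CD44, CD47 and CD276 differences kept their direction and their call wherever the row was tested, and CD300LB kept its call in 11 of 15. CD200 and CD59A passed under none. The count of the CD targets past the threshold was 3 to 4 with 1 array left out, and the log2 differences then ran from 0.59 to 0.74 for CD44, 0.48 to 0.56 for CD47, 0.69 to 0.88 for CD276, 0.32 to 0.53 for CD300LB, -0.22 to -0.06 for CD200 and -0.12 to 0.22 for CD59A. For the rows that were not tested they ran from -0.48 to -0.18 for CD24A, 0.11 to 0.32 for CD55 and -0.30 to -0.11 for CD8B1. Subtracting background gave log2 differences of 1.63 for CD276, 1.14 for CD300LB and -0.32 for CD200. Without the filter, 1167 of 30828 targets passed instead of 3864 of 11743, and 21 genes of the partner lists instead of 42; the cause was not tested. With 1 array left out these counts ran from 2917 to 3581 targets and from 34 to 40 list genes. Among genes named above, the calls for Thbs2, Sirpa, Qpct, Nectin2, Pigl, Pigs, Pigt, Fcer1g, Ly6c1 and Cd109 were lost only without the filter. Replicate numbers did not pair the samples (correlations of deviations -0.04, -0.18 and 0.10 for numbers 1, 2 and 3), and a replicate block gave 3485 calls, 4 of them CD targets. Signal near background limits CD24A, CD55, CD59A, CD200, CD276, CD8B1 and CD300LB.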
